A study of Mus musculus with 3 samples.

Results

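The apolipoproteins are the protein components of the particles that carry lipid in blood, and 10 of their genes were followed across the cells of the mouse liver. These were Apoa1, Apoa2, Apoa4, Apoa5, Apob, Apoc1, Apoc3, Apoe, Apom and Apoh, taken by gene symbol from the 55357 genes of the count matrix, and all 10 were present. The cells came from 3 libraries of the droplet-based 10x Genomics Chromium 3′ assay, each made from hepatocytes and nonparenchymal cells combined in equal numbers after perfusion of the liver with collagenase. All mice were wild-type male C57BL/6 animals that were 8 weeks old when the study began. The control library (CON) came from untreated mice. The high-fat diet library (HFD) came from mice fed for 4 months on a diet that supplied 60% of its energy as fat. The CCl4 library came from mice kept on chow for 3 months, which then received 0.1 mL of a 10% solution of the liver toxin carbon tetrachloride intraperitoneally 2 times per week over 4 weeks. Cells of 2 mice were pooled in each library, so there was 1 sample per condition, no test across samples was possible, and every interval given here covers counting error alone.

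Hepatocytes make most of the apolipoproteins of plasma. Apob forms the backbone of very-low-density lipoprotein (VLDL), onto which triglyceride is loaded before secretion, whereas Apoa1 and Apoa2 are the main proteins of high-density lipoprotein (HDL). Apoc1, Apoc3 and Apoa5 regulate the lipases that unload triglyceride, and Apoe binds the receptors that return remnants to the liver. Apoe is also made by macrophages, and Apoa4 by the intestine as well as the mouse liver.

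Apoa1, Apoc3, Apoa4 and Apoa5 form a gene cluster on chromosome 9, and Apoe and Apoc1 lie in another on chromosome 7. Of the 10 genes, 8 were matched to a RefSeq table of promoter windows (GRCm38.p6), each holding the 250 bases before the transcription start. Shown are 3 neighbours of the chromosome 9 cluster, whose levels differed between the libraries in different ways, and Apoe, which stood apart in macrophage-like cells. All are written 5′ to 3′ along the gene, Apoa1, Apoa4 and Apoa5 from the plus strand and Apoe from the minus strand. Capitals mark a match, on either strand, to a motif searched for, and those given here were the TATA box TATAAA, the nuclear receptor site AGGTCA and the letters CAAAGT of the Hnf4a consensus.
Apoa1, chr9:46228380-46228629: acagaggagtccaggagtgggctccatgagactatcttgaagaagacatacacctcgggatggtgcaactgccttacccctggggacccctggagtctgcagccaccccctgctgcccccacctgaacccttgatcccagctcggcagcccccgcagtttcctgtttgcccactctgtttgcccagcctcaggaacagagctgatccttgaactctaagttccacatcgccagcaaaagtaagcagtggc
Apoa4, chr9:46240594-46240843: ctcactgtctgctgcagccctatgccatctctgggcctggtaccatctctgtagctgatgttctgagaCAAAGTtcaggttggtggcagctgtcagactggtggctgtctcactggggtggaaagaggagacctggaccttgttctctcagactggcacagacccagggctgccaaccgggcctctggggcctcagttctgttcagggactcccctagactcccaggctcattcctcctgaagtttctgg
Apoa5, chr9:46268383-46268632: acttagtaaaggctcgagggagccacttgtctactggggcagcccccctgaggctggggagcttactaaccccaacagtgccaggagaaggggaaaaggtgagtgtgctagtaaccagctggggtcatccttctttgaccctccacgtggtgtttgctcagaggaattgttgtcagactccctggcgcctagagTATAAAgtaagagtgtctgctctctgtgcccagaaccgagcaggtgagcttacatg
Apoe, chr7:19699189-19699438: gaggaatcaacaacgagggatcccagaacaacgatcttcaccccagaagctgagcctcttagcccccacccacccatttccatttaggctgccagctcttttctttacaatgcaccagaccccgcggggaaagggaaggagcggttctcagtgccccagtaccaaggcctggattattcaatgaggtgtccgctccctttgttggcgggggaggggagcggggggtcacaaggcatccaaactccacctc
The Apoa5 window held TATAAA 56 bases before the start, the Apoa4 window held CAAAGT 182 bases before it, and the Apoa1 and Apoe windows held none of these. Positions count from the RefSeq start. The start of the main transcript in GENCODE lay 148 bases from it for Apoa4, 50 for Apoa1 and 0 for Apoa5 and Apoe. TATAAA was found in 3 of the 8 matched genes (Apoa2, Apoa5 and Apob) and in 12.4% of the 32851 windows of the table. It lay 212 bases before the start in Apoa2, 56 in Apoa5 and 60 in Apob. AGGTCA was found in 1 gene, Apoh, against 14.0% of windows, and the Hnf4a letters in 1, Apoa4, against 12.6%. These matches describe letters in a short window and were not tested for binding.

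The control library held 11245 barcodes and 49613255 unique molecular identifiers (UMIs, each standing for a captured RNA molecule), the HFD library 12984 and 34985786, and the CCl4 library 12761 and 34061186. Scrublet, a doublet caller, marked 2, 1 and 2 barcodes and so did not work, and the pairs of libraries shared 36, 49 and 52 barcode sequences. Clustering of the 36946 cells kept, with the apolipoproteins themselves left out, gave 37 clusters, of which 7 were hepatocyte-like by their marker genes. The clusters of each class are named for what their markers resemble, and the naming rule was set after the clusters had been seen. Hepatocyte-like cells made up 44.3%, 49.2% and 55.1% of the cells of the control, HFD and CCl4 libraries. In 6 of the 7 hepatocyte-like clusters at least 90% of the cells came from 1 library, so the class was held by different clusters in each condition. Of the 7, 4 had a median mitochondrial share of at least 2% (called mito-rich here) and held 1529, 1181 and 3066 cells. The others (mito-poor) held 3433, 5201 and 3970 cells. The clusters of both kinds varied in how many of 12 hepatocyte markers they raised over the other clusters. The mito-poor cluster of the control raised 3 and was led by Mt1, Saa2 and Saa1, those of HFD and CCl4 raised 5 and 10, and the mito-rich clusters raised 4 to 12. Over T cell-like cells, the 12 hepatocyte markers stood at a median of 4.76-fold, 1.69-fold and 1.56-fold in mito-rich cells and at 1.97-fold, 1.26-fold and 1.20-fold in mito-poor cells. The acute-phase gene Saa1 was at 17504 CPM (UMIs per 1e+06 UMIs of the class) in control hepatocyte-like cells, against 662 in HFD and 193 in CCl4, and its part in the results below was not tested.

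Together the 10 apolipoproteins took up 51734 CPM (95% interval 51649 to 51819) of control hepatocyte-like cells, 76418 (76287 to 76548) in HFD and 92628 (92496 to 92760.0) in CCl4. The median cell of the class spent 5.57%, 7.91% and 10.3% of its UMIs on them. Because the assay counts the 3′ ends of molecules, levels were compared between genes without scaling for length. In control hepatocyte-like cells the order ran from Apoa2 at 18551 CPM through Apoc1 at 9177, Apoc3 at 7815, Apoa1 at 6569, Apoe at 5188, Apob at 1504, Apoa4 at 999, Apoh at 808 and Apoa5 at 609 to Apom at 514, and no neighbouring intervals overlapped. Apoa2 also led in HFD (30223 CPM) and in CCl4 (30202 CPM). Apoc1 followed it in both, and Apoe, the fifth in the control, was the third.

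**Figure D1:**
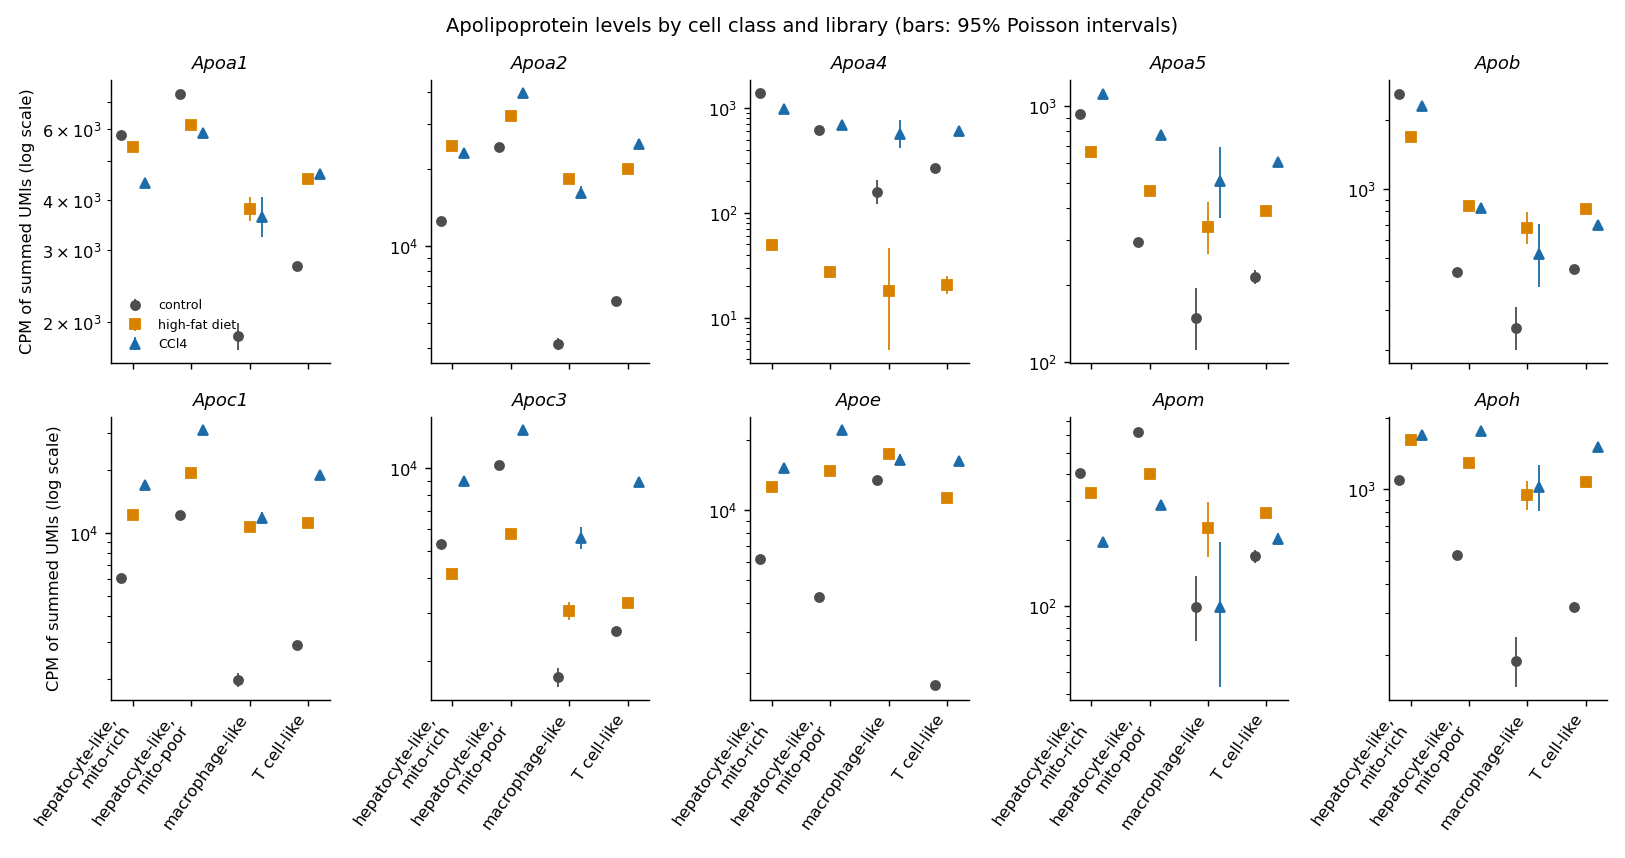
Level of each apolipoprotein as CPM of summed UMIs (y axis, log scale, different for each gene) in 4 cell classes (x axis) of the control, HFD and CCl4 libraries, with 95% Poisson intervals as bars. Apoa4 in HFD lies far below both other libraries in every class, and Apoe of control macrophage-like cells (13408 CPM) lies far above control T cell-like cells (1780.0 CPM).

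T cells are not known to express most of these genes, so the level in T cell-like cells was taken as the level of free RNA in the droplets of a library. Other classes held other levels, so no single level held for a library. Apoa2 of the control was at 1929 CPM in plasma cell-like, 6106 in T cell-like and 8519 in B cell-like cells. Their median depths were 7802, 2380.5 and 1948 UMIs. Control granulocyte-like cells held 10275 CPM of Apoa2 and erythroid cell-like cells 15329, beside 18551 in hepatocyte-like cells. In HFD and CCl4 erythroid cell-like cells held 29812 and 30451 CPM, about as much as hepatocyte-like cells (30223 and 30202). Apob of CCl4 was lower in erythroid cell-like (1346 CPM) than in hepatocyte-like cells (1677). The family reached 17521 CPM in control T cell-like cells, 52693 in HFD and 77623 in CCl4, at median depths of 2380.5, 2214 and 2020 UMIs per cell. All 10 genes were higher in hepatocyte-like than in T cell-like cells of the same library, with the interval of the ratio above 1, in each of the 3 libraries, although only 4 were in CCl4 when each library was clustered on its own. Of all genes tested, 41.6% in the control, 49.2% in HFD and 45.9% in CCl4 also had their interval above 1. The ratios ran from 2.39 (Apoa1) to 3.70 (Apoa4) in the control, from 1.25 (Apoe) to 1.65 (Apoc3) in HFD and from 1.08 (Apoa1) to 2.40 (Apob) in CCl4.

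As a yardstick, 20 other plasma protein genes of the hepatocyte, among them Alb, Ttr and Fga, were set beside the apolipoproteins. In the hepatocyte-like class they stood at a median of 3.46, 1.45 and 1.47 times their T cell-like level, and the apolipoproteins at 3.04, 1.38 and 1.20. In mito-rich cells the gap was wider, with medians of 4.81, 1.84 and 1.62 for the yardstick genes against 2.91, 1.26 and 0.989 for the apolipoproteins. In mito-poor cells it lay the other way, with medians of 1.81, 1.25 and 1.21 against 2.53, 1.33 and 1.32. Among mito-rich cells, Apob, Apoa4 and Apoa5 had the largest ratios of the 10 genes in every library. In the control they stood at 5.75 (5.51 to 6.00), 5.14 and 4.34, and Apoa2, Apoc3, Apoc1 and Apoa1 were between 2.06 and 2.11. In CCl4, Apob stood at 3.29 (3.17 to 3.41), above the highest yardstick gene, Itih3 at 2.52, and Apoa5 and Apoa4 at 1.84 and 1.60. In that library 5 apolipoproteins had an interval above 1 in mito-rich cells, against 47.1% of all genes tested, and 4 had it below 1, namely Apoa1 (0.949), Apoa2 (0.920), Apoc1 (0.891) and Apoe (0.934). All 10 intervals were above 1 in mito-rich cells of the control (37.7% of all genes) and HFD (44.2%).

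**Figure D2:**
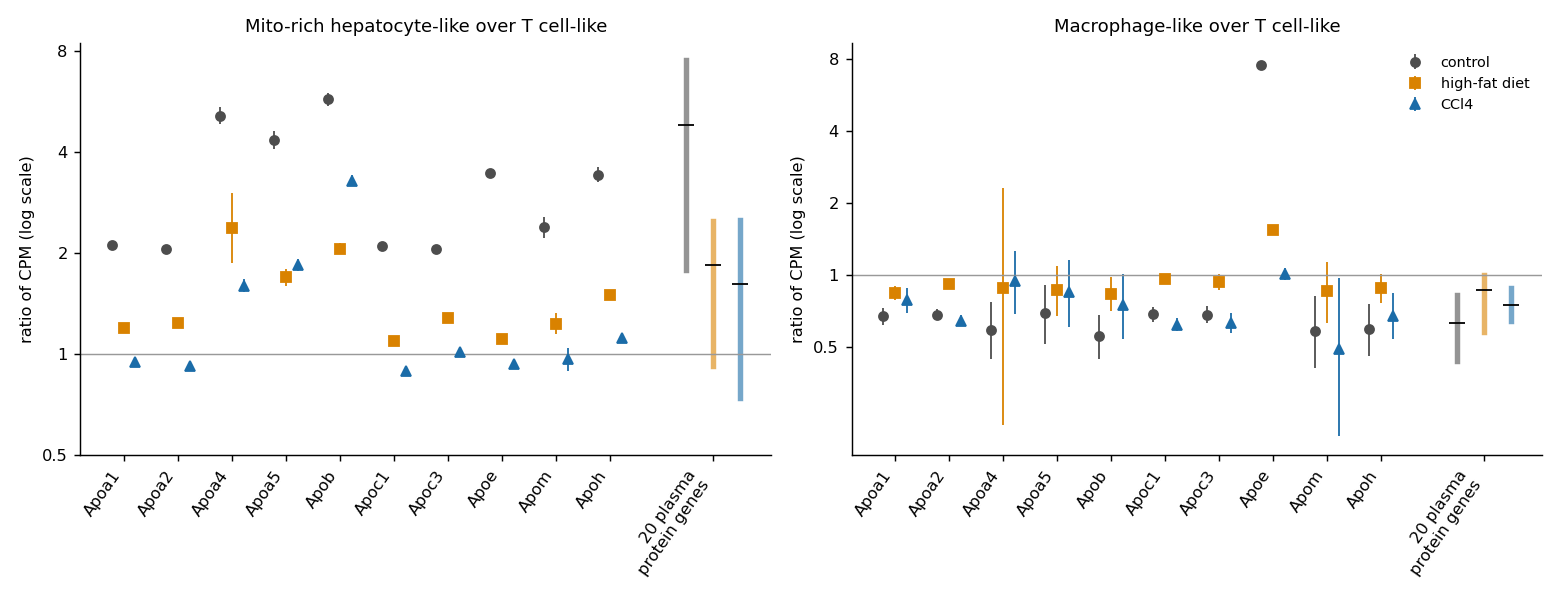
Ratio of CPM to T cell-like cells of the same library (y axis, log scale) for each apolipoprotein in mito-rich hepatocyte-like cells (left) and macrophage-like cells (right), with 95% intervals, beside the range (thick line) and median (dash) of 20 plasma protein genes. On the left Apob, Apoa4 and Apoa5 have the largest ratios in each library, and on the right Apoe of the control stands alone at 7.53.

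The diet library was compared with the control to ask which apolipoprotein transcripts differ between untreated liver and a dietary disease model. Apoa2, Apoc1, Apoe and Apoh were at least 1.5-fold higher in hepatocyte-like cells in HFD, which is 4 of 10 against 16.2% of the 2543 genes of at least 50 CPM. Apoa4 alone was at least 1.5-fold lower, 1 of 10 against 14.7%. In mito-rich cells alone, Apoa2, Apoc1 and Apoe were higher (3 of 10 against 20.2%) and Apoa4 and Apob lower (2 of 10 against 12.6%). At 2-fold, Apoe was higher (1 of 10 against 5.54%) and Apoa4 lower (1 of 10 against 7.75%) in hepatocyte-like cells. The median log2 ratio of the 10 genes was -0.19, beside 0.06 for all genes tested. In CCl4, Apoa2, Apoa5, Apoc1, Apoe and Apoh were at least 1.5-fold higher than in the control, 5 of 10 against 17.4% of 2569 genes, and Apom was lower, 1 of 10 against 17.6%, with a median log2 ratio of 0.58 beside -0.00 for all genes. At 2-fold, Apoc1, Apoe and Apoh were higher (3 of 10 against 7.75%) and Apom lower (1 of 10 against 7.86%). Mito-rich cells alone gave 5 of 10 higher in CCl4 than in the control (Apoa2, Apoc1, Apoc3, Apoe and Apoh, against 18.9%) and Apom lower (1 of 10 against 15.4%). CCl4 over HFD gave 4 of 10 higher (Apoa4, Apoa5, Apob and Apoc3, against 12.6% of 2507 genes) and 1 lower (Apom, against 13.2%). At 2-fold it gave 2 of 10 higher (Apoa4 and Apoc3, against 5.11%) and 0 lower (against 4.51%), and in mito-rich cells 3 of 10 higher (Apoa4, Apoa5 and Apoc3, against 8.31%) and Apom lower (against 10.9%). The same control library enters both comparisons with it.

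These ratios were read with the free RNA beside them, since T cell-like cells also differed between libraries. In them Apoe was 6.33-fold and 9.13-fold higher in HFD and in CCl4 than in the control, and Apoc1 3.85-fold and 6.57-fold. When the T cell-like level was taken off, 0 apolipoproteins remained at least 1.5-fold higher in either treated library. Of the 10, 7 in HFD and 8 in CCl4 were then at least 1.5-fold lower than in the control. No share of all genes was taken beside these counts, so they are not read as particular to the apolipoproteins. In mito-rich CCl4 cells the subtraction left values below 0, such as -2065 CPM for Apoc1, -2007 for Apoa2 and -1074 for Apoe. There it took off more than the cells held. It treats the T cell-like level as that of hepatocyte-like droplets, which was not tested. Median depths were 8326, 3632 and 3291.5 UMIs in mito-rich cells, against 2380.5, 2214 and 2020 in T cell-like cells. The subtracted ratios here and below are a description. Per UMI of the 20 plasma protein genes, a scale chosen after the data had been seen, the HFD over control ratio was 0.0371 in hepatocyte-like and 0.0345 in T cell-like cells for Apoa4, and 3.06 and 2.86 for Apoe. The yardstick genes took up 9.77%, 8.69% and 14.2% of the UMIs of hepatocyte-like cells in the control, HFD and CCl4 libraries, and 2.78%, 6.16% and 10.3% of those of T cell-like cells.

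**Figure D3:**
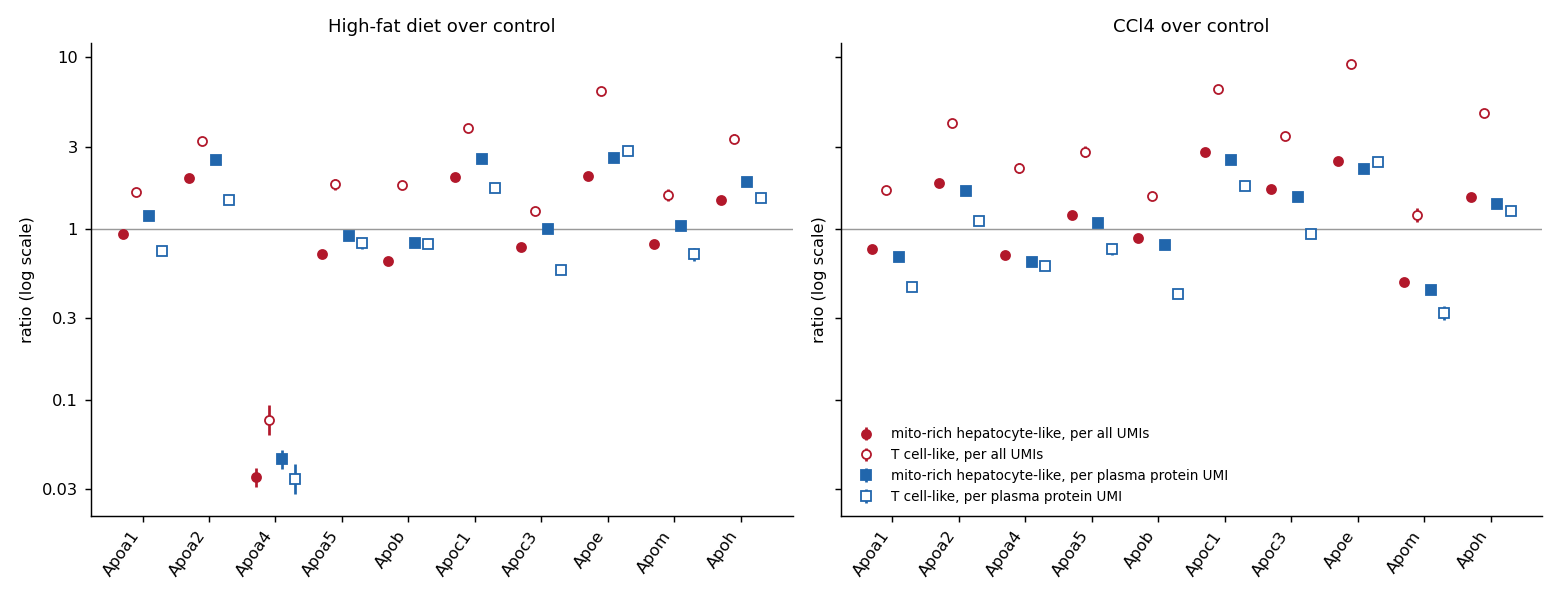
Ratio between libraries (y axis, log scale) for each apolipoprotein, HFD over control (left) and CCl4 over control (right), in mito-rich hepatocyte-like cells (filled) and T cell-like cells (open), per all UMIs (circles) or per UMI of 20 plasma protein genes (squares), with 95% intervals. Apoa4 lies below 0.1 on the left on every scale, and the open circles of Apoe lie at 6.33 and 9.13.

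Apoa4, an activator of cholesterol esterification that rides on chylomicrons and HDL, differed most between the libraries. Hepatocyte-like cells held 999 CPM (987 to 1011) in the control, 32.9 (30.3 to 35.8) in HFD and 857 (844 to 869) in CCl4. These rested on 27488, 566 and 17535 UMIs. The CCl4 level was 0.858 (0.842 to 0.874) of the control, whereas the HFD level was 0.0330 (0.0303 to 0.0358) of the control. The ratio was 0.0353 in mito-rich cells, and per 1000 UMIs of the plasma protein genes HFD had 0.379 Apoa4 UMIs in hepatocyte-like cells against 10.2 in the control. T cell-like cells, taken as free RNA, were likewise lowest in HFD. They had 269.9 CPM in the control, 20.7 in HFD and 610.3 in CCl4, from 1346, 106 and 2670 UMIs. At least 1 Apoa4 UMI was seen in 91.7% of control, 14.9% of HFD and 86.9% of CCl4 mito-rich cells, and in 45.9%, 4.76% and 71.5% of T cell-like cells. After thinning each cell to 1000 UMIs the shares were 59.9%, 4.43% and 55.3% in mito-rich cells and 22.4%, 2.03% and 45.2% in T cell-like cells. Across 40 points, each a cell class in a library, the log2 level of Apoa4 had r = 0.07 with the sum of the other apolipoproteins, the lowest of the 10, whereas Apoc1 had the highest at 0.98. The points share libraries and free RNA, so these values are a description. Gm10680 and Gm47528 overlap Apoa4 on the other strand.

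In CPM, its neighbours on chromosome 9 were also lower in HFD hepatocyte-like cells than in those of the control. The difference was far smaller, at 0.905 (Apoa1), 0.852 (Apoa5) and 0.684 (Apoc3) of the control. For Apoa5 the direction depended on which clusters were counted, at 0.710 in mito-rich and 1.58 (1.52 to 1.64) in mito-poor cells. Apoa1, the structural protein of HDL and the cofactor of Lcat, was at 6569 CPM in control hepatocyte-like cells, 5948 in HFD and 5015 in CCl4. The HFD level was 0.905 (0.898 to 0.912) and the CCl4 level 0.763 (0.758 to 0.769) of the control. Apoc3, an inhibitor of lipoprotein lipase, had 7815, 5349 and 10978 CPM in the same order, lowest in HFD and highest in CCl4. CCl4 over HFD was 2.05 (2.04 to 2.07) for Apoc3, but 0.995 once the T cell-like level was taken off. Apoa5, an activator of triglyceride lipolysis, had 609, 519 and 969 CPM and was 1.59-fold (1.56 to 1.62) higher in CCl4 than in the control. Counted as UMIs per cell instead, Apoa5 turned to 0.835 of the control, and with the T cell-like level taken off to 0.928. As UMIs per cell the median log2 ratio to the control of all genes tested was -0.98 in HFD and -0.93 in CCl4. A value below 1 on that scale is therefore not read as particular to a gene. Gm47544 overlaps Apoa5 in antisense.

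Apoe was lowest in the control in hepatocyte-like cells, with 5188 CPM (5162 to 5215) against 14119.8 (14064 to 14176) in HFD and 18068 (18009.6 to 18126) in CCl4. The ratios to the control were 2.72 (2.70 to 2.74) and 3.48 (3.46 to 3.50). Per UMI of the plasma protein genes they were 3.06 and 2.40 in hepatocyte-like cells and 2.86 and 2.46 in T cell-like cells, but with the T cell-like level taken off they turned to 0.838 and 0.531. Apoc1, the neighbour of Apoe and an inhibitor of remnant uptake, followed the same order with 9177, 17403 and 22916 CPM. It was 1.90-fold higher in HFD and 2.50-fold higher in CCl4. As UMIs per cell it was 0.921 in HFD, where the median log2 ratio of all genes tested was -0.98. With the T cell-like level taken off it was 0.997 in HFD and 0.622 in CCl4.

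Of the HDL proteins, Apoa2 had 18551 CPM in control hepatocyte-like cells, 30223 in HFD and 30202 in CCl4. Both treated libraries were 1.63-fold the control, and the ratio between them was 0.999 (0.996 to 1.00). As UMIs per cell the ratios to the control were 0.791 and 0.854, where the median log2 ratios of all genes tested were -0.98 and -0.93. With the T cell-like level taken off they were 0.824 and 0.403 for Apoa2. Apom, a carrier of sphingosine-1-phosphate on HDL, had 514, 379 and 235 CPM. It was the only member at least 1.5-fold lower in CCl4, where it was 0.457 (0.442 to 0.473) of the control. Per UMI of the plasma protein genes the CCl4 ratio of Apom was 0.315 in hepatocyte-like, 0.437 in mito-rich and 0.323 in T cell-like cells.

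Apob, the scaffold of VLDL, had 1504 CPM (1489 to 1518) in control hepatocyte-like cells, 1073 (1058 to 1089) in HFD and 1677 (1659 to 1695) in CCl4. The HFD ratio was 0.714 (0.701 to 0.726) in hepatocyte-like and 0.649 (0.633 to 0.665) in mito-rich cells. In mito-poor cells it lay the other way, at 1.94 (1.88 to 2.00). CCl4 was 1.12-fold the control in hepatocyte-like cells and 0.886-fold in mito-rich cells. In both treated libraries the direction of Apob thus depended on which clusters were counted. CCl4 over HFD was 1.56 (1.54 to 1.59), but 0.958 per UMI of the plasma protein genes and 0.842 under the first form of the naming rule. Apoh, or beta-2-glycoprotein I, which binds phospholipid and is a plasma glycoprotein more than a lipid carrier, had 808, 1371 and 1711 CPM. It was 1.70-fold and 2.12-fold higher in the treated libraries. As UMIs per cell it was 0.823 in HFD, where the median log2 ratio of all genes tested was -0.98. With the T cell-like level taken off it was 0.614 and 0.417. Gm11656 and Prkca overlap Apoh, so its counts are less certain.

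In macrophage-like cells (73, 81 and 28 cells) Apoe stood apart from the other apolipoproteins. It was at 13408 CPM (13034 to 13789) in the control, 17422 (16876 to 17982) in HFD and 16406 (15532 to 17316) in CCl4. T cell-like cells held 1780.0 CPM in the control, 11263 in HFD and 16259 in CCl4. The ratio was therefore 7.53 (7.27 to 7.80) in the control, 1.55 (1.497 to 1.598) in HFD and 1.01 (0.955 to 1.07) in CCl4. Counted against the highest of the 20 plasma protein genes, Apoe alone lay above it in the control (Trf at 0.823), 1 of 10 against 56.6% of all genes tested, and in HFD (Vtn at 1.00), 1 of 10 against 47.8%. In CCl4, Apoa4 at 0.938 (0.685 to 1.25) and Apoe lay above the highest (Trf at 0.885), 2 of 10 against 64.9%, but both intervals held 1 and the class had 28 cells. The other 9 members lay between 0.553 and 0.691 in the control. By the same rule Apoe alone also lay above the highest plasma protein gene in other control classes. These were monocyte-like (0.879 against 0.811), endothelial cell-like (1.13 against 0.736) and fibroblast-like cells (0.817 against 0.720). In HFD and CCl4 it did not in any of these classes, and no share of all genes was taken for them. The 12 macrophage markers summed to 10722, 7252 and 4618 CPM in this class, where 2 were at 0 in CCl4, and to 43.3, 80.9 and 134 CPM in mito-rich hepatocyte-like cells, where 3, 1 and 2 of them were at 0. Combined with monocyte-like cells, the HFD ratio of Apoe turned to 0.939.

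Cholangiocyte-like cells (115, 165 and 213 cells), the epithelium of the bile ducts, also held more Apoe, relative to the plasma protein genes, in the control and HFD libraries. Apoe was at 4356 CPM (4211 to 4505) in the control, 13799 (13506 to 14097) in HFD and 14221 (13938 to 14508) in CCl4. Over T cell-like cells this was 2.45 (2.35 to 2.55), 1.23 (1.20 to 1.25) and 0.875 (0.856 to 0.893), whereas the median of the 20 plasma protein genes was 0.525, 0.681 and 0.871. The highest plasma protein gene was Ambp at 1.65, 1.18 and 1.03, so that Apoe lay far above it in the control, little above it in HFD and below it in CCl4. Apoe exceeded the median 4.66-fold in the control and 1.80-fold in HFD, and equalled it at 1.00 in CCl4. The corresponding values of the macrophage-like cluster were 12.0, 1.79 and, in the 28 cells of CCl4, 1.34. Among clusters with at least 50 cells in a library, control endothelial cell-like cells followed at 1.92, and at the other end lay a mito-rich hepatocyte-like cluster of HFD at 0.448 and one of CCl4 at 0.555. Outside that size, 23 fibroblast-like cells of the control were at 3.07 and 10 hepatocyte-like cells of HFD at 0.419.

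**Figure D4:**
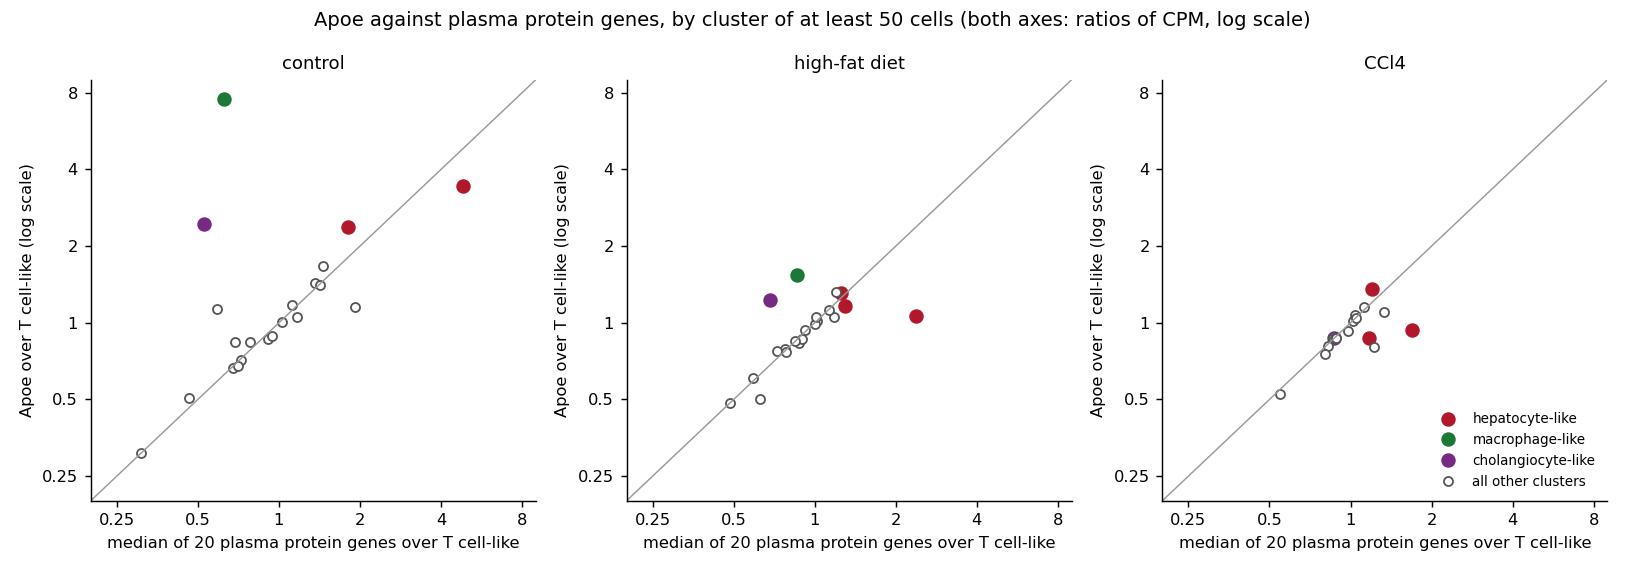
Apoe over T cell-like cells (y axis) against the median of 20 plasma protein genes over T cell-like cells (x axis), both as ratios of CPM on log scales, for each cluster of at least 50 cells in the control, HFD and CCl4 libraries; the line marks equal ratios. Control macrophage-like (12.0-fold) and cholangiocyte-like (4.66-fold) clusters lie far above the line, and the CCl4 macrophage-like cells are too few to be drawn.

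Among hepatocyte-like cells, single apolipoproteins differed between the mito-rich and mito-poor clusters, as a large share of all genes did (given below). Apob was higher in mito-rich cells in every library, with 2594 against 436 CPM in the control, 1683 against 846 in HFD and 2299 against 830.1 in CCl4, which are ratios of 5.95 (5.79 to 6.11), 1.99 (1.93 to 2.05) and 2.77 (2.70 to 2.84). Apoa5 followed at 3.15, 1.42 and 1.44, and Apoa4 at 2.25, 1.81 and 1.41. Apoc1 lay the other way, with 6064 against 12225 CPM in the control, 12184 against 19345 in HFD and 16947 against 31043 in CCl4, ratios of 0.496, 0.630 and 0.546. Apoc3 (0.515, 0.717 and 0.658) and Apoa2 (0.516, 0.768 and 0.583) did the same. The mito-poor levels of Apob lay near those of T cell-like cells, which held 451, 816 and 699 CPM of it. Apoe was 1.45-fold higher in mito-rich cells of the control and lower there in HFD (0.851) and in CCl4 (0.690). Of the 10 genes, 4 in the control were at least 1.5-fold higher in mito-rich cells, against 36.9% of all genes, and 4 lower, against 32.1%. In HFD 1 of the 9 tested, Apob, was higher (33.7%) and 1 lower (23.9%), Apoa4 being below 50 CPM there, and in CCl4 1 of 10 was higher (36.7%) and 3 lower (23.3%). The median mitochondrial share was 6.17%, 4.35% and 4.56% in mito-rich and 0.334%, 0.456% and 0.618% in mito-poor cells, with median depths of 8326, 3632 and 3291.5 against 3136, 2200 and 1988 UMIs. Their part in these differences was not tested.

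Liver lobules are zoned from the portal tract to the central vein, and mito-rich cells of each library were ordered by pericentral against periportal genes and split into tertiles. Of these genes, periportal Cyp2f2 had pericentral over periportal ratios of 0.0442, 0.0424 and 0.682 in the control, HFD and CCl4. Hal had 0.0699, 0.0565 and 0.509, and pericentral Glul 18.6, 24.1 and 33.9. Pck1, also on the periportal list, had 1.08, 0.340 and 0.581, and so did not lean periportal in the control. The CCl4 tertiles thus differed less in Cyp2f2 and Hal. Tertiles were cut within each library, and the upper cut of CCl4 (-2.44 in log2) lay below the lower cut of the control (-1.86). The pericentral tertile of CCl4 held 1026 CPM of Cyp2f2, beside 55.9 in the pericentral and 1267 in the periportal tertile of the control. It held 127 CPM of Glul, against 873 in the control. The tertile names are thus relative to each library, and the CCl4 ratios below are not read as a change of zonation. Apoa4 was higher on the periportal side in each library. It had 2099 CPM in the periportal and 432 in the pericentral tertile of the control, 83.6 and 12.7 in HFD, and 1021 and 742 in CCl4. The pericentral over periportal ratio was 0.206 (0.196 to 0.217) in the control, 0.151 (0.0887 to 0.245) in HFD and 0.727 (0.692 to 0.763) in CCl4. Apoc1 leaned the other way at 1.63 (1.61 to 1.66), 1.42 (1.39 to 1.44) and 1.13 (1.12 to 1.14), as did Apoa2 at 1.39, 1.44 and 1.28. Apoa1 was nearly even in the control (0.926) and in CCl4 (1.09) but 0.573 (0.555 to 0.592) in HFD, with 3783 CPM in the pericentral and 6598 in the periportal tertile. At 1.5-fold, 1 gene was pericentral in the control (Apoc1, against 17.8% of all genes) and 0 in the treated libraries (15.4% and 2.47%). Periportal were 1 in the control (Apoa4, against 6.93%), 3 in HFD (Apoa1, Apoa4 and Apoa5, against 10.9%) and 0 in CCl4 (against 1.56%). Over all hepatocyte-like cells the periportal counts were 1, 1 and 2 (against 5.02%, 2.45% and 10.7%) and the pericentral counts 0 in each (7.91%, 4.11% and 10.2%). The tertiles held 509, 393 and 1022 cells, and 11.1%, 8.04% and 20.4% of the cells lay within 0.1 log2 units of a boundary. In the control, the periportal tertile was also deeper (10331 against 7180 median UMIs) and richer in mitochondrial UMIs (7.11% against 5.01%). The same held in HFD (4394 against 3530 median UMIs, and 4.50% against 3.70%). In CCl4 the depths were 3179 and 3193 UMIs and the mitochondrial shares 4.90% and 4.36%. The part of depth or mitochondrial share was not tested.

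**Figure D5:**
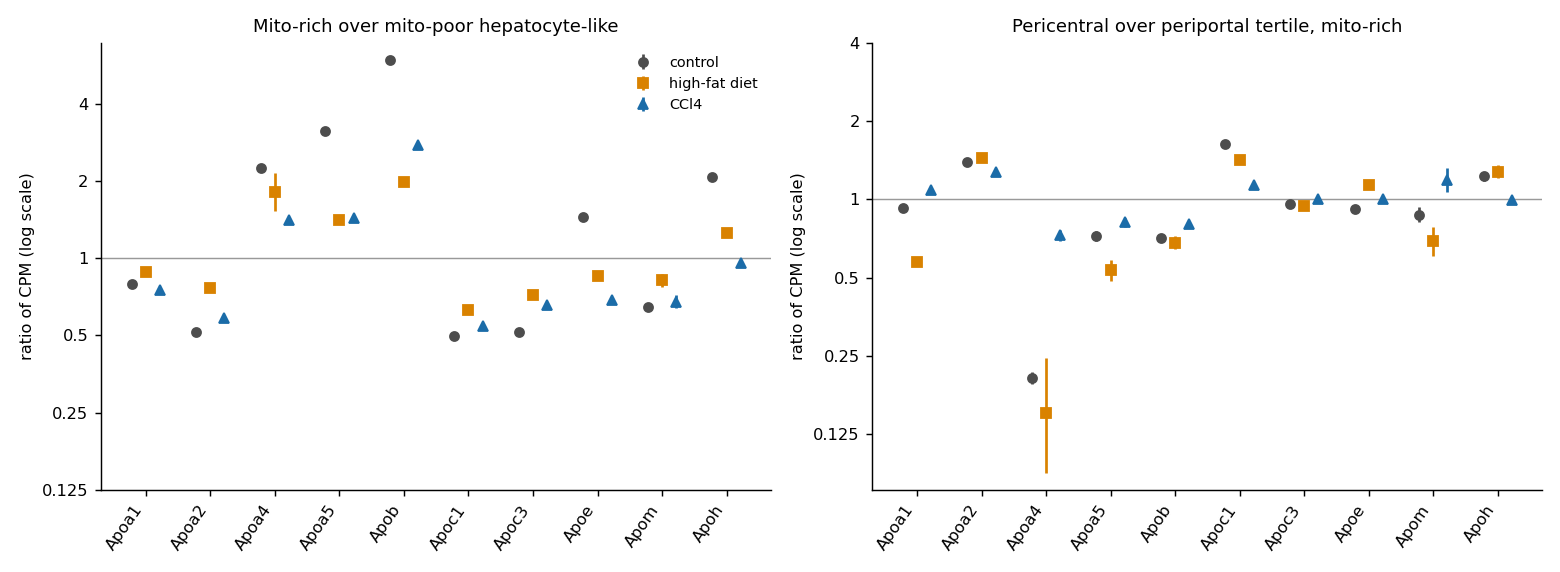
Ratio of CPM (y axis, log scale) for each apolipoprotein between mito-rich and mito-poor hepatocyte-like cells (left) and between the pericentral and periportal tertiles of mito-rich cells (right) in the 3 libraries, with 95% intervals. Apob, Apoa4 and Apoa5 lie above 1 and Apoc1, Apoc3 and Apoa2 below 1 on the left in each library, and Apoa4 is the lowest on the right.

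The other genes of lipoprotein metabolism were counted in hepatocyte-like cells from a list of 51. In HFD 27 reached 50 CPM, of which 8 were at least 1.5-fold higher than in the control and 6 lower, against the 16.2% and 14.7% of all genes given above. Among the higher were the HDL enzyme Pon1 (478 against 206 CPM), the secretion factor Sar1b (405 against 257), the lipid transfer protein Pltp (52.6 against 3.49) and the lipase inhibitor Angptl8 (55.3 against 11.2). So were the regulators Nr1h4 (66.6 against 42.3), Srebf1 (131 against 36.7) and Nr0b2 (108 against 55.6). Lower were Apon (446 against 761), Clu (549 against 1061), P4hb (391 against 726), a subunit of the complex that loads lipid onto Apob, Angptl4 (28.2 against 50.3), the exporter of cholesterol to Apoa1, Abca1 (130.4 against 318), and Hnf4a (117 against 197), a master regulator of hepatocyte genes. Mttp, the other subunit of that complex, differed little, with 92.2, 85.6 and 111 CPM in the 3 libraries. In mito-rich cells alone, 10 of 31 were higher in HFD than in the control and 6 lower, against 20.2% and 12.6% of all genes. There 0 regulators of transcription were lower, so Hnf4a was not called lower in those cells.

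In CCl4, 10 of 27 were higher than in the control and 2 lower, against the 17.4% and 17.6% of all genes. Pon1 (432 CPM), Sar1b (476), Angptl8 (132), Nr1h4 (71.3), Srebf1 (164) and Nr0b2 (122) were again among the higher genes, joined by Apol7a (72.1 against 32.6), the HDL receptor Scarb1 (116 against 69.8) and Creb3l3 (214 against 138). Abca1 (198 against 318) was among the lower. In mito-rich cells alone, 9 of 28 were higher in CCl4 than in the control and 3 lower, against 18.9% and 15.4% of all genes. There 0 lipoprotein receptors or their regulators were higher, so Scarb1 was not called higher in those cells. Against HFD, 6 of 27 were higher in CCl4, namely Apof, Apon, P4hb, Scarb1, Angptl4 and Angptl8, and Pltp was lower (1.91 against 52.6), against the 12.6% and 13.2% of all genes. In mito-rich cells alone, 5 of 33 were higher in CCl4 than in HFD and 6 lower, against 8.31% and 10.9% of all genes.

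Outside lipoprotein metabolism, among the genes whose level over the 40 points was most like the sum of the apolipoproteins were Gchfr (r = 0.985), Hpd (0.984), Otc (0.979) and Uox (0.979), out of 7481 genes. The members ranged from 0.98 for Apoc1 to 0.63 for Apom and 0.07 for Apoa4.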

How the data were processed

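The values deposited by the authors are unnormalized UMI counts for every gene and barcode, and the file headers name Cell Ranger 7.2.0. The paper names mm10 and the submitters' processing notes GRCm39, so no positions besides the promoter windows are given. Barcodes under 500 UMIs, under 200 genes or over 30% mitochondrial UMIs were dropped, as were the few that Scrublet marked. The others were clustered without the apolipoproteins (scanpy 1.11.5, Python 3.11.15; 2000 variable genes, 30 components, 15 neighbours, Leiden resolution 1.0). Clusters were named from marker lists for 17 cell types, where a marker counted as raised in at least 10% of cells at 1.5-fold the median of the other clusters; 33 clusters received a name and 15 classes were found.

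Sums of UMIs were taken over each class of each library. Intervals at 95% are exact Poisson for CPM, Clopper-Pearson for shares of cells and exact conditional for ratios (scipy 1.17.1). Fold counts used genes of at least 50 CPM in either group and 1.5-fold. Likeness to the family is Pearson r of log2(CPM + 5). All 10 members were named, and pathway genes past 1.5-fold; some items that the counts include are not reported here by name. The members and lists were chosen with earlier results of these data known. The members were recomputed under 18 planned and 3 added alternatives, and 0 columns of samples were left unused. The fold calls, the intervals of ratios and the rule of the highest plasma protein gene were run on simulated Poisson counts. Clustering, naming, the tertiles, the subtraction and variation between mice were not simulated.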

Additional observations from a re-analysis of the deposited data

Results flagged for a closer look

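In CCl4, the levels of 4 apolipoproteins were lower in mito-rich hepatocyte-like cells than in T cell-like cells of the same library, although the same ratios were above 1 in the control and in HFD. The ratios were 0.949 for Apoa1, 0.920 for Apoa2, 0.891 for Apoc1 and 0.934 for Apoe. In the control they were 2.11, 2.06, 2.10 and 3.45, and in HFD 1.20, 1.24, 1.09 and 1.11. With 1 library per condition the difference between the libraries was not tested. In the same CCl4 cells the 20 plasma protein genes ranged from 0.742 (Rbp4) to 2.52 (Itih3). In the mito-poor cells of CCl4, all 10 apolipoproteins had an interval above 1, with ratios from 1.14 to 1.63.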

How the results depend on the processing

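Single libraries of 2 pooled mice, heavy free RNA and hepatocyte clusters that divide by library limit these results, and 28 macrophage-like cells limit the CCl4 class. No paired analysis was possible because each condition had 1 library. The cause of the shifts below was not tested.

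Of 971 recomputed ratios, 383 were classed as the same, 569 as moved and 19 as reversed. The 19 are given here, and each stood past 1.5-fold before it turned. Ratios nearer 1 that crossed 1 are not among them, such as Apob in CCl4 over control (1.12, and 0.886 in mito-rich cells). Per plasma protein UMI, Apoc1 in CCl4 over HFD likewise went from 1.32 to 0.807. Of 272 recomputed counts of apolipoproteins, 227 stayed within 1.5 times their value and 45 did not. Counts of higher, lower, pericentral and periportal members below are at 1.5-fold or more unless 2-fold is named. The shares of all genes for the 2-fold and mito-rich counts are given above, and those for a minimum of 20 CPM below. For every other recomputed count in this section no share of all genes was taken, so these counts are not read as particular to the apolipoproteins. Taking off the T cell-like level left 0 higher in either treated library than in the control and gave 7 lower in HFD, 8 in CCl4 and 5 in CCl4 against HFD; Apoa2 turned to 0.824 and 0.403 (HFD and CCl4 over control), Apoc1 to 0.997 and 0.622, Apoe to 0.838 and 0.531, Apoh to 0.614 and 0.417, Apoa5 in CCl4 to 0.928, and Apoc3 in CCl4 over HFD to 0.995. As UMIs per cell, 0 were higher and 6 lower in HFD, 1 higher and 4 lower in CCl4, and 0 lower in CCl4 against HFD; Apoa2 turned to 0.791 and 0.854, Apoa5 in CCl4 to 0.835, and Apoc1 and Apoh in HFD to 0.921 and 0.823. Per UMI of the plasma protein genes, a setting added after the data had been seen, 2 were higher and 3 lower in CCl4 than in the control and 1 higher and 3 lower than in HFD, where Apob turned to 0.958. At 2-fold, 1 was higher in HFD, 3 in CCl4 and 2 in CCl4 against HFD, with 0 lower in the last.

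Mito-rich clusters alone gave 2 lower in HFD, 5 above T cell-like cells in CCl4, 1 pericentral in the control, and 3 and 0 periportal in HFD and in CCl4. Resolution 2.0 and 4000 variable genes each gave 3 lower in HFD, 3 lower in CCl4 and 1 pericentral in the control, and a minimum of 2000 UMIs gave 3, 2 and 1. The first form of the naming rule, also added later, gave 3 lower in CCl4, 1 pericentral in the control and 0 periportal in HFD, with Apob in CCl4 over HFD at 0.842 and Apoc1 over T cell-like cells in HFD at 0.930. Clustering each library alone gave 4 above T cell-like cells and 0 periportal in CCl4. Counting every cell the same gave 2 lower in HFD, and CPM outside the most abundant genes gave 2 periportal in the control.

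In macrophage-like cells in HFD, the number above the plasma protein genes was 2 with a mitochondrial limit of 10%, without the 8% highest doublet scores and with each library clustered alone, and 3 at resolution 2.0. In CCl4 it was 1 without those doublet scores and with monocyte-like cells added, which turned Apoe in HFD to 0.939. Resolution 0.5 gave no macrophage-like class and clustering alone gave none in CCl4. With a minimum of 20 CPM, the share of all genes past 1.5-fold in hepatocyte-like cells was between 9.61% and 14.7%, in place of 12.6% to 17.6%, with the same numbers of apolipoproteins. Leaving out the most abundant genes or counting every cell the same moved the log2 median of all genes by less than 0.1. As UMIs per cell it moved by -1.04 (HFD over control), -0.93 (CCl4 over control) and 0.11 (CCl4 over HFD), and per plasma protein UMI by 0.17, -0.54 and -0.71.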
